A study of Homo sapiens with 120 samples.

Results

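ID1, ID2, ID3, ID4, SMAD6, SMAD7 and NOG were followed in U2OS cells, a human osteosarcoma line, under 3 ways of switching on the integrated stress response. The rule that defines them goes by name and uses no measured value: they are genes that bone morphogenetic protein (BMP) signalling is known to switch on and that restrain it or carry its effect. The members were, however, chosen with earlier results of these data known. All 7 of 7 were found among 57665 genes in the deposited tables, and all 7 were among the 26998 genes that passed the filter on low counts. RNA was sequenced from Parental U2OS cells, whose label gives the genotype WT, and from a U2OS derivative that stably expresses Dmr-PERK, the kinase domain of mouse PERK joined to a drug-inducible dimerization domain. The labels do not say whether the derivative is 1 clone, nor which promoter drives the construct. Each line was left untreated for 0, 4, 8, 16 or 24 h, or was given dimerizer (AP20187, 195 pM per the sample titles, rounded to 0.2 nM in the series text), thapsigargin at 100 nM or sodium arsenite at 0.05 mM for 2, 4, 8, 16 or 24 h, with 3 wells in each of the 40 groups. Dimerizer brings Dmr-PERK molecules together so that they phosphorylate eIF2α, thapsigargin blocks the SERCA calcium pump and stresses the endoplasmic reticulum, and arsenite causes oxidative stress. The submitters state that the doses were set to give comparable eIF2α phosphorylation.

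BMPs are secreted ligands that bind paired type I and type II receptors at the cell surface. The receptors phosphorylate SMAD1, SMAD5 and SMAD9, which join SMAD4, enter the nucleus and switch on a small set of direct targets, the ID genes, SMAD6 and SMAD7 among them. ID proteins bind basic helix-loop-helix (bHLH) transcription factors and keep them off DNA, SMAD6 and SMAD7 block the receptors and the signalling SMADs from inside the cell, and noggin binds BMP ligands outside it. In bone-forming cells these genes are textbook readouts and brakes of BMP signalling.

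The sequences before the start sites are shown because the members share regulators but did not all move together. Of the 7 genes 6 were matched in the RefSeq promoter table of GRCh38.p14. The 90 bases that end 11 bases before the start of ID1 (chr20:31605189-31605278, plus strand) and of ID4 (chr6:19837270-19837359, plus strand) both hold TATAAA, in capitals, the core of a TATA box. This motif was added to the search after the sequences had been seen.
ID1: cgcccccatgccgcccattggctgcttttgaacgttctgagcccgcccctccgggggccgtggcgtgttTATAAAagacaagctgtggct
ID4: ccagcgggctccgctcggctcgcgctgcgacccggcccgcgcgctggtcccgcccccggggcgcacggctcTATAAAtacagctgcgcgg
SMAD6 (chr15:66702213-66702235, plus strand) carried GTCTAGAC, the palindrome that SMAD3 and SMAD4 bind, in the last 23 bases before its start. ID3 (chr1:23559633-23559659, minus strand) and ID4 (chr6:19837154-19837180, plus strand) carried the shorter SMAD element CAGAC, again in capitals. The SMAD6 and ID3 stretches overlap exons of those genes in GENCODE 29, whose starts lie further upstream, and the ID1 and ID4 stretches overlap no exon.
SMAD6: gccgccaaagtGTCTAGACtggc
ID3: gtcttcggcgtCAGACcagccggagga
ID4: gctggccactcCAGACcccccgcccac
On both strands of the 250 bases before the start, TATAAA occurred in 10.7% of 35116 RefSeq promoters, CAGAC in 38% and GTCTAGAC in 0.182%. SMAD7 held CAGAC before 2 of its 3 listed starts and TATAAA before 1 of them. The BMP SMAD element GGCGCC (16.4% of promoters) and the element TGATGNAA bound by ATF4 and C/EBP proteins (3.14%) were in none of the matched windows. The search covered only 250 bases, so elements further upstream could not be found. The ID2 window held no motif searched, and the 90 bases that end 11 bases before its start overlap an ID2 exon. No motif searched contains another. These are matches of letters, not measured binding.

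In GENCODE 29 on GRCh38, ID1 lies at chr20:31605283-31606515 on the plus strand, ID2 at chr2:8678845-8684453 on the plus strand and ID3 at chr1:23557918-23559794 on the minus strand. ID4 lies at chr6:19837386-19840684, SMAD6 at chr15:66702228-66782848 and NOG at chr17:56593699-56595590, all on the plus strand. No position is given for SMAD7, whose identifier version was not in that annotation. ID2 overlaps the antisense gene ID2-AS1, and ID4 overlaps the antisense gene AL022068.1. The library kit keeps strand; whether it was used in counting is not given in the sources, and reads of such partners could be shared. ID2-AS1 group means stayed between 0.366 and 2.44 TPM (transcript abundance corrected for length and depth) and those of AL022068.1 between 1.92 and 9.30 TPM.

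Library totals ran from about 12900000 to 56500000 estimated counts, with a median near 22300000, and mitochondrial genes took 2.72% to 6.61% of counts. The stress genes ATF4, DDIT3 and ASNS rose with dimerizer, thapsigargin and arsenite in Dmr-PERK cells; DDIT3 rose by 3.15 ± 0.04, 4.76 ± 0.04 and 5.07 ± 0.04 on the log2 scale (estimate ± SE) as the mean of 4 to 24 h. HSPA5, the ER chaperone BiP, rose by 3.64 ± 0.02 with thapsigargin. HMOX1, the oxidative stress enzyme heme oxygenase, rose by 8.81 ± 0.04 with arsenite. All 5 of these stress genes were called higher with dimerizer (27.5% of all genes) and with thapsigargin (30.9%) in Dmr-PERK cells. With arsenite 4 were called higher (44.4%) and HSPA5 lower (39.2%). The summed level of 8 osteoblast lineage markers was 1702 to 2034 TPM in untreated Dmr-PERK wells and 2575 to 2752 TPM in untreated Parental wells, although SP7 and IBSP were at or near the TPM written for a count of 0. Most of that sum was SPARC (untreated means of 1527.5 TPM in Dmr-PERK and 1520.5 TPM in Parental cells) and COL1A1 (338 and 1107 TPM). That sum reached as low as 757 TPM with dimerizer, 574 TPM with thapsigargin and 1009 TPM with arsenite in Dmr-PERK cells, and 1286 TPM with thapsigargin and 863 TPM with arsenite in Parental cells, while with dimerizer in Parental cells its lowest value was 2470 TPM; its part in the results below was not tested. With arsenite in Dmr-PERK cells 4 of the 6 osteoblast markers tested were called higher (44.4% of all genes) and 2 lower (39.2%), so the sum does not speak for every marker. Summed levels of 6 blood markers stayed at or below 3.83 TPM, of 6 endothelial markers at or below 11.6 TPM, and of 6 epithelial markers between 433 and 1074 TPM. In bulk RNA, fewer cells that express a gene and less RNA per cell cannot be told apart. Parental arsenite 24 h replicate 3 stood apart from its replicates (chi-square per degree of freedom of 50.5 and 53.2 over genes, with 4.14% of counts from mitochondrial genes against 6.51% and 6.61%). Dmr-PERK arsenite 4 h replicate 3 did so less (15.3 and 14.3, with 2.72% against 4.72% and 4.56%), and no other pair exceeded 4.24. Member values at those hours are given with and without them.

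Levels between genes are compared in TPM, which is corrected for transcript length. In untreated Dmr-PERK wells at 0 h ID1 was the most abundant member at 342 ± 6.90 TPM (SD, n = 3), followed by ID3 at 192 ± 5.49 TPM and NOG at 69.5 ± 1.31 TPM. ID2 (19.0 ± 2.09 TPM), SMAD7 (16.1 ± 2.32 TPM) and ID4 (15.2 ± 0.223 TPM) came next; SMAD7 and ID4 were no further apart than their spread, and ID2 and SMAD7 differed by more than either SD but had overlapping intervals of 1 SD. SMAD6 was lowest at 8.36 ± 1.37 TPM. In Parental wells at 0 h the order began in the same way, with ID1 at 308 ± 10.2, ID3 at 155 ± 6.09 and NOG at 59.7 ± 2.26 TPM. SMAD6 there stood at 21.3 ± 1.08 TPM, between ID2 at 28.6 ± 2.25 and SMAD7 at 19.4 ± 2.20 TPM, and ID4 was lowest at 14.5 ± 0.538 TPM.

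All further levels are CPM, counts relative to library size after scaling by the trimmed mean of M-values. Differences are log2 ratios with their SE from edgeR's quasi-likelihood test, called at an adjusted p below 0.05 over all 26998 genes. The labels do not tie the 3 wells of a group to separate cultures. A p therefore reflects only how far such wells scatter, and that scatter may be technical.

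SMAD6 was the member that set the untreated lines furthest apart. At 0 h its wells held 19.8, 25.9 and 24.4 CPM in Dmr-PERK cells and 56.5, 61.1 and 60.5 CPM in Parental cells. No Dmr-PERK well reached a Parental well at this or any other untreated time. Over the 5 untreated times the difference was -1.30 ± 0.04, a level 2.46-fold lower in Dmr-PERK cells (adjusted p = 1.24e-50). ID2 (-0.50 ± 0.04) and SMAD7 (-0.13 ± 0.03) were also lower in Dmr-PERK cells, while ID3 (0.45 ± 0.03) and NOG (0.45 ± 0.03) were higher. ID1 (0.05 ± 0.03, adjusted p = 0.125) and ID4 (-0.04 ± 0.05, adjusted p = 0.534) were not called. Thus 2 of 7 members were higher and 3 lower, against 30.3% and 32.2% of all genes tested.

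Untreated cells were not a flat baseline for these genes. Each of the 7 changed over the 5 untreated times in Dmr-PERK cells, where 53.4% of all genes did, and each of the 7 in Parental cells, where 55.4% did. ID4, the ID gene known from neural stem cells, moved most. It went from 22.4, 22.9 and 23.1 CPM at 0 h to 6.08, 4.93 and 5.00 CPM at 24 h in Dmr-PERK cells, with no overlap between the times, and fell by 2.08 ± 0.10. In Parental cells it went from 20.6, 22.1 and 21.6 CPM to 6.74, 6.61 and 5.40 CPM and fell by 1.75 ± 0.10. At 24 h against 0 h, 6 of 7 members were lower in Dmr-PERK cells (16.7% of all genes were) and 7 of 7 in Parental cells (16.8% of all genes). SMAD6 in Dmr-PERK cells was the exception (-0.15 ± 0.10, adjusted p = 0.273); it dipped at 4 h (-0.81 ± 0.11) and 8 h (-0.95 ± 0.11) and came back. For this reason treated wells at 4 to 24 h are set against untreated wells of the same hour. Wells at 2 h, for which no untreated wells of the same hour were sampled, are set against 0 h. Rises and falls with a treatment are relative to those wells, and a member called higher can still lie below its 0 h level.

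**Figure D1:**
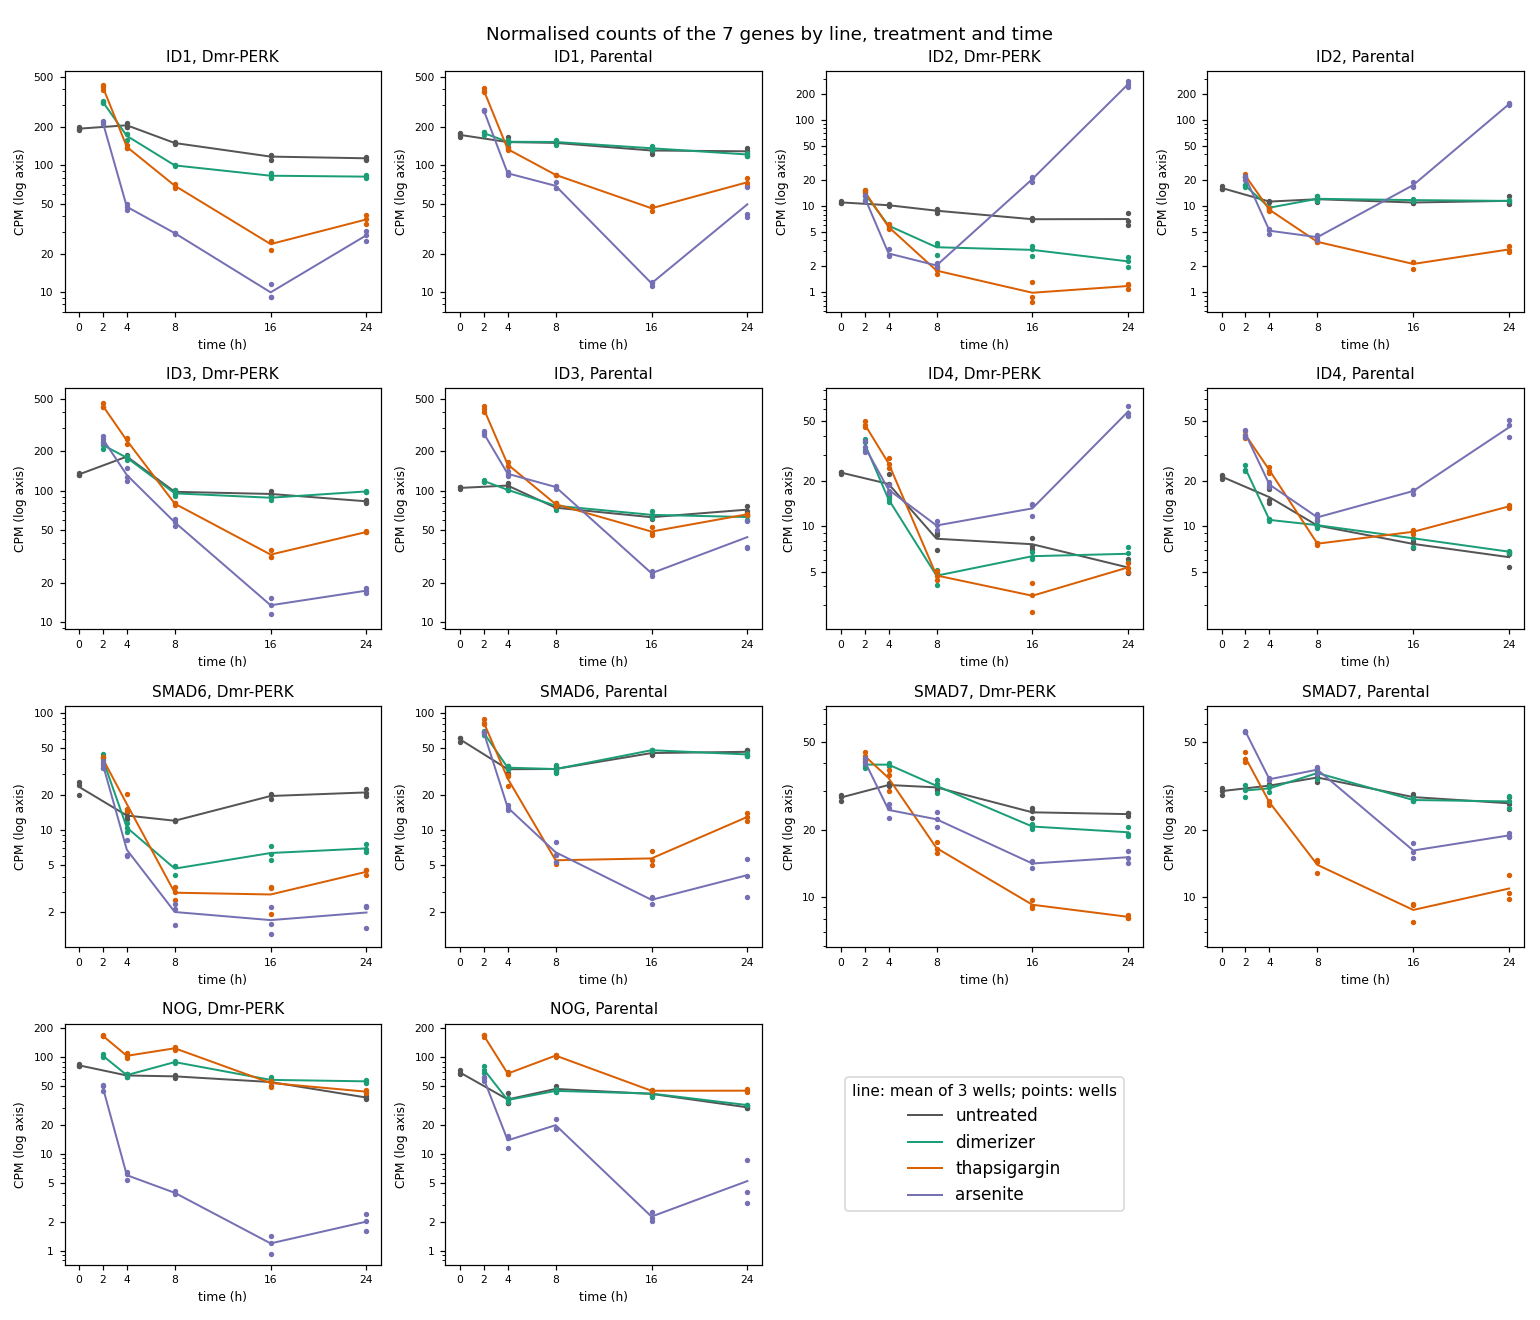
CPM (log axis) of the 7 genes against time (h) in Dmr-PERK and Parental cells, with 1 colour per treatment; points are wells and lines join means of 3 wells. Untreated ID4 falls from 22.8 to 5.34 CPM in Dmr-PERK cells, ID2 under arsenite climbs to 263 CPM at 24 h, and NOG under arsenite drops to 1.20 CPM at 16 h in the same line.

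Dimerizer, the ligand of Dmr-PERK, lowered ID2 and SMAD6 most. ID2, an inhibitor of bHLH factors in many progenitor cells, held 9.35, 8.39 and 8.87 CPM in untreated Dmr-PERK wells at 8 h and 3.76, 3.52 and 2.72 CPM with dimerizer. At 24 h it held 6.76, 8.40 and 6.11 CPM untreated and 1.99, 2.56 and 2.30 CPM with dimerizer. Dimerizer wells lay below untreated wells at both hours, and the mean difference from 4 to 24 h was -1.24 ± 0.06, 2.36-fold lower (adjusted p = 5.92e-37). SMAD6, the inhibitory SMAD that prefers BMP receptors, held 12.3, 11.9 and 11.8 CPM untreated at 8 h and 4.19, 4.96 and 4.96 CPM with dimerizer. At 24 h the wells held 22.4, 20.9 and 19.5 CPM against 6.84, 7.55 and 6.56 CPM. Every dimerizer well from 4 to 24 h was lower than every untreated well of those hours, and the mean difference was -1.22 ± 0.06 (adjusted p = 4.96e-33).

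ID1, the ID gene most used as a BMP readout, fell less. Its wells held 117, 111 and 113 CPM untreated at 24 h and 84.3, 81.1 and 79.3 CPM with dimerizer, without overlap. The mean difference was -0.46 ± 0.03 (adjusted p = 2.42e-23), and the difference was between -0.28 ± 0.06 at 4 h and -0.59 ± 0.07 at 8 h. ID4 was lower at 4 h (-0.34 ± 0.09) and 8 h (-0.81 ± 0.13), but at 24 h its value was 0.27 ± 0.13 (adjusted p = 0.0838), so the mean of -0.28 ± 0.06 covers values of both signs. ID3, a close relative of ID1, gave 0.02 ± 0.03 as a mean (adjusted p = 0.616), with 85.6, 82.3 and 81.2 CPM untreated and 98.2, 99.5 and 98.6 CPM with dimerizer at 24 h. At that hour alone ID3 was called higher (0.25 ± 0.07).

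SMAD7, the inhibitory SMAD that acts on both BMP and TGF-beta receptors, crossed zero. It was higher at 4 h, with 40.04, 39.4 and 38.7 CPM against 32.5, 31.8 and 31.4 CPM untreated, and the groups did not overlap (0.30 ± 0.06). It was lower at 16 h (-0.21 ± 0.06) and 24 h (-0.27 ± 0.06), and its mean of -0.04 ± 0.03 was not called (adjusted p = 0.318). NOG, the secreted antagonist, was the 1 member called higher than untreated wells as a mean, by 0.28 ± 0.04 (adjusted p = 3.97e-11). Its wells held 39.8, 38.0 and 37.0 CPM untreated at 24 h and 56.3, 58.3 and 54.2 CPM with dimerizer, without overlap. Both sets of wells lay below those of 0 h, so NOG had fallen less with dimerizer than without it. NOG was higher at 8 h (0.49 ± 0.07) and 24 h (0.56 ± 0.08), and gave 0.01 ± 0.07 at 4 h and 0.07 ± 0.07 at 16 h, neither of which was called. In all, 1 of 7 members was higher (27.5% of all genes) and 4 were lower (27.7% of all genes); the median of the 7 was -0.28, that of all genes -0.03. With upper-quartile scaling 5907 genes were higher and 9306 lower, against 7415 and 7486, the median of all genes was -0.11, and SMAD7 was called lower (-0.12). The difference from untreated wells changed with time from 4 to 24 h for all 7 members, as for 42.1% of all genes. ID1 was not called in that test without the replicate 1 wells, ID1 and ID3 without the replicate 2 wells, and ID3 with limma on log2 TPM.

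In Parental cells, which lack the construct, dimerizer left these genes near their untreated levels. ID2 there held 11.5, 11.7 and 11.4 CPM with dimerizer and 10.6, 13.0 and 11 CPM untreated at 24 h, and SMAD6 held 45.5, 42.6 and 43.9 CPM against 48.4, 48.3 and 42.4 CPM, with overlap in both. The 7 mean differences lay between -0.08 ± 0.05 for ID4 and 0.01 ± 0.04 for SMAD6. None was called by edgeR, 0 of 7 had an unadjusted p below 0.05, and DESeq2 called 0 of 7. Of all genes 0.326% were called higher and 0.256% lower, 88 and 69 genes. That split was 71 and 99 genes with upper-quartile scaling, and the sum of 157 became 330 without Parental arsenite 24 h replicate 3, a library outside the comparison that enters the shared spread. At single hours 1 member was called: ID4 was lower at 4 h (-0.53 ± 0.10, adjusted p = 2.33e-05), with 11.1, 10.9 and 11.1 CPM against 17.6, 15 and 14.3 CPM, at an hour when 3.73% of all genes were called lower. ID4 was likewise the 1 member whose difference changed with time (3.76% of all genes), a call lost with the replicate 1 or the replicate 2 wells left out. All genes so called numbered 1015, and 1551 without that arsenite library. No member was called at 2, 8, 16 or 24 h, hours at which 0.178%, 0%, 0% and 0% of all genes were. Over those 4 hours 3, 0, 0 and 1 of the 7 had an unadjusted p below 0.05, as had 1632, 1115, 1369 and 1399 of all genes, and DESeq2 called no member.

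The effect of dimerizer differed between the lines, tested as the effect in Dmr-PERK cells minus that in Parental cells, for 5 members. It was lower by -0.46 ± 0.05 for ID1, -1.21 ± 0.07 for ID2, -0.21 ± 0.08 for ID4 and -1.24 ± 0.07 for SMAD6, so 4 of 7 members were called lower where 23.2% of all genes were. NOG was higher by 0.29 ± 0.05, the 1 member called higher where 23.7% of all genes were. ID3 (0.07 ± 0.05) and SMAD7 (-0.04 ± 0.04) were not called. The ID4 call was lost without the replicate 1 wells (adjusted p = 0.132) and without the replicate 2 wells (adjusted p = 0.150). Upper-quartile scaling gave 5140 higher and 7731 lower genes, against 6412 and 6266, and called SMAD7 lower (-0.12).

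The first hours went the other way. At 2 h of dimerizer all 7 members were higher in Dmr-PERK cells than at 0 h, where 8.53% of all genes were. ID1 held 313, 322 and 316 CPM against 190, 195 and 200 CPM, a rise of 0.70 ± 0.06, and ID3 held 209, 236 and 223 CPM against 137, 131 and 131 CPM, a rise of 0.74 ± 0.06. SMAD6 had the largest estimate of the 7, 0.77 ± 0.09, with 33.8, 41.3 and 44.5 CPM against 19.8, 25.9 and 24.4 CPM. In each of the 7 genes the 3 dimerizer wells lay above the 3 wells at 0 h, and the smallest rises were 0.33 ± 0.07 for NOG and 0.34 ± 0.08 for ID2. In Parental cells at 2 h of dimerizer the 7 values lay between 0.02 ± 0.06 and 0.19 ± 0.07, and none was called. The difference between lines at 2 h was called higher for 5 of 7 members (3.34% of all genes): ID1 (0.65 ± 0.09), ID3 (0.57 ± 0.09), ID4 (0.45 ± 0.11), SMAD6 (0.58 ± 0.11) and SMAD7 (0.47 ± 0.08). The choice of control wells matters here, since untreated cells moved between 0 and 4 h. With untreated wells at 4 h as the control, chosen after the data had been seen, the 7 values at 2 h of dimerizer in Dmr-PERK cells were still all called higher, from 0.29 for ID3 to 1.58 for SMAD6. In Parental cells 5 of 7 were then called higher as well, among them SMAD6 (1.03) and NOG (1.01), against none with the 0 h wells. The difference between lines was not tested with that control.

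An early rise was also seen with thapsigargin, in both lines. At 2 h all 7 members were higher in Dmr-PERK cells (18.2% of all genes) and all 7 in Parental cells (16.6% of all genes). ID3 rose most: in Dmr-PERK cells it held 461, 431 and 433 CPM against 137, 131 and 131 CPM at 0 h, a 3.32-fold level (1.73 ± 0.06), and in Parental cells 421, 438 and 400 CPM against 106, 102 and 107 CPM, a 4.00-fold level (2.00 ± 0.06). ID1 rose by 1.09 ± 0.06 and 1.17 ± 0.06 and NOG by 1.01 ± 0.06 and 1.27 ± 0.07 in the Dmr-PERK and Parental lines. The differences between lines in this 2 h rise lay between -0.27 ± 0.09 for ID3 and 0.32 ± 0.11 for SMAD6, and the smallest adjusted p was 0.0862, for ID3. All 14 calls held with untreated wells at 4 h as the control, where ID3 stood at 1.28 and 1.93. The share of all genes called with that control is again not given.

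At 4 h thapsigargin still left several members above untreated wells. In Dmr-PERK cells NOG (0.68 ± 0.07), ID4 (0.44 ± 0.08), ID3 (0.41 ± 0.06) and SMAD6 (0.30 ± 0.10) were higher, ID2 (-0.85 ± 0.09) and ID1 (-0.57 ± 0.06) were lower and SMAD7 was not called, so 4 of 7 were higher (19.7% of all genes) and 2 lower (19.9%). In Parental cells NOG (0.87 ± 0.07), ID4 (0.58 ± 0.08) and ID3 (0.53 ± 0.06) were higher, 3 of 7 against 20.9% of all genes, and ID2, SMAD6, SMAD7 and ID1 lower, 4 of 7 against 19.7%. The SMAD6 call in Dmr-PERK cells was lost without the replicate 2 wells (adjusted p = 0.440) and with upper-quartile scaling (adjusted p = 0.0533). By 16 h most members were lower. ID2 in Dmr-PERK cells held 7.10, 7.24 and 6.84 CPM untreated at 16 h and 0.882, 0.771 and 1.31 CPM with thapsigargin, without overlap, a 7.29-fold lower level. These wells rest on as few as 15 counts. SMAD6 at 16 h held 19.8, 18.6 and 20.1 CPM against 1.95, 3.24 and 3.31 CPM, 7.0-fold lower, and in Parental cells 44.5, 43.6 and 47.6 CPM against 5.54, 5.06 and 6.62 CPM, 7.82-fold lower. ID1 at 16 h held 111, 120 and 121 CPM untreated and 21.6, 25.5 and 24.7 CPM with thapsigargin in Dmr-PERK cells, 4.93-fold lower. All of these groups were separate.

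As means of 4 to 24 h in Dmr-PERK cells, ID2 (-2.15 ± 0.07), SMAD6 (-1.69 ± 0.07), ID1 (-1.40 ± 0.04), SMAD7 (-0.93 ± 0.03), ID3 (-0.55 ± 0.03) and ID4 (-0.38 ± 0.06) were lower and NOG was higher (0.45 ± 0.04); the means of SMAD6, ID3 and ID4 average the higher values at 4 h and lower ones at 8 and 16 h. That makes 1 of 7 higher (30.9% of all genes) and 6 lower (32.2% of all genes), with a median of -0.93 where the median of all genes was 0. In Parental cells SMAD6 (-1.91 ± 0.05), ID2 (-1.54 ± 0.05), SMAD7 (-1.13 ± 0.03) and ID1 (-0.84 ± 0.03) fell, 4 of 7 members against 35% of all genes. NOG (0.67 ± 0.04) and ID4 (0.38 ± 0.05) rose there, 2 of 7 against 30.1% of all genes, although ID4 was lower at 8 h (-0.40 ± 0.11), and ID3 gave 0.04 ± 0.03 (adjusted p = 0.351). The medians were -0.84 for the 7 and -0.06 for all genes.

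From 4 h on the rise of NOG under thapsigargin was largest at 8 h. It held 61.1, 65.3 and 63.5 CPM untreated and 119, 128 and 124 CPM with thapsigargin in Dmr-PERK cells (0.96 ± 0.07), and 50.3, 45.5 and 45.1 CPM against 99.6, 105 and 106 CPM in Parental cells (1.15 ± 0.07), without overlap in either line. At 16 h the NOG values were -0.03 ± 0.07 and 0.11 ± 0.07, and neither was called. The differences from untreated wells changed with time for all 7 members in Dmr-PERK cells, as for 52.2% of all genes, and for all 7 in Parental cells, as for 49.9%.

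Among the members, the response to thapsigargin differed most between the lines in ID4. At 24 h of thapsigargin it held 13.7, 13.2 and 13.8 CPM in Parental cells, above the untreated 6.74, 6.61 and 5.40 CPM (1.10 ± 0.11). In Dmr-PERK cells it held 4.98, 5.74 and 5.33 CPM, overlapping the untreated 6.08, 4.93 and 5.00 CPM (-0.01 ± 0.14, adjusted p = 0.967). The difference between lines in the mean thapsigargin effect was -0.76 ± 0.08 for ID4, -0.61 ± 0.09 for ID2, -0.59 ± 0.05 for ID3, -0.56 ± 0.05 for ID1 and -0.22 ± 0.05 for NOG, so 5 of 7 members were called lower where 14.4% of all genes were. SMAD7 was called higher (0.21 ± 0.05), 1 of 7 where 11.3% of all genes were, and SMAD6 was not called (0.22 ± 0.09, adjusted p = 0.0696). Left-out wells ended 2 of these calls, SMAD7 without replicate 1 (adjusted p = 0.0635) and NOG without replicate 2 (adjusted p = 0.0590). Scaling by library totals called SMAD6 higher (0.26) and gave 4010 higher and 3040 lower genes, against 3054 and 3885. The lines were sampled as separate series of wells, so the construct and any other difference between the lines cannot be told apart.

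**Figure D2:**
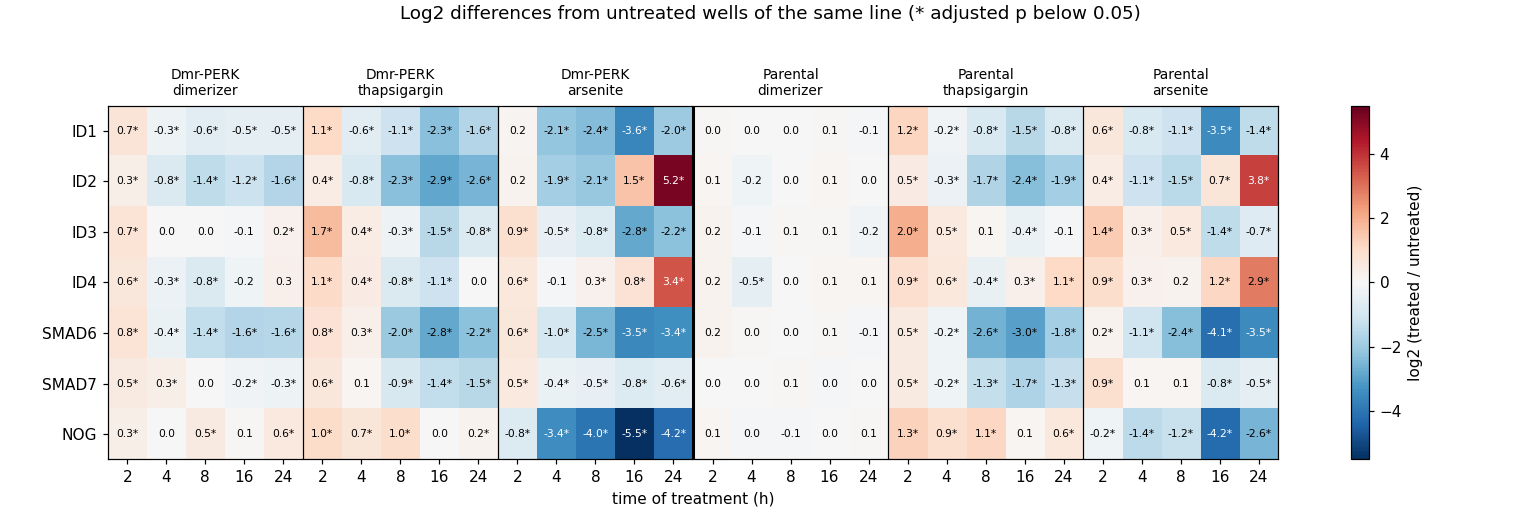
Log2 ratio of treated to untreated wells for each gene (rows) at 2, 4, 8, 16 and 24 h of each treatment in each line (columns; 2 h is set against untreated 0 h), with a star where the adjusted p was below 0.05. The 2 h columns of dimerizer in Dmr-PERK cells and of thapsigargin in both lines are positive for all 7 genes, and ID2 and ID4 turn strongly positive at 24 h of arsenite.

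Arsenite split the members. NOG was lost early and stayed low in Dmr-PERK cells. Its wells held 65.6, 66.3 and 62.2 CPM untreated at 4 h and 6.29, 5.42 and 6.45 CPM with arsenite, and at 16 h 50.5, 56.8 and 58.8 CPM against 1.44, 0.938 and 1.21 CPM, which was 45.5-fold lower (-5.51 ± 0.14). The value at 4 h was -3.41 with all wells and -3.46 without replicate 3, the Dmr-PERK library that stood apart. The arsenite wells at 16 h rest on 25 counts or more. As a mean of 4 to 24 h NOG fell by 4.28 ± 0.06 in Dmr-PERK cells (adjusted p = 3.63e-80) and by 2.36 ± 0.06 in Parental cells (adjusted p = 4.45e-61). In Parental cells NOG held 23.0, 18.1 and 18.5 CPM at 8 h, against 50.3, 45.5 and 45.1 CPM untreated, and 2.20, 2.05 and 2.53 CPM at 16 h, against 44.8, 41 and 39.5 CPM. The fall there was thus shallow at 8 h (-1.24 ± 0.09) and deep at 16 h (-4.22 ± 0.13). At 24 h the Parental wells held 3.11, 4.02 and 8.67 CPM, the highest in the Parental library that stood apart. The value at 24 h was -2.55 with this library and -3.08 without it, and the mean -2.36 and -2.50.

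SMAD6 and ID1 fell in both lines. SMAD6 in Parental cells at 16 h held 2.69, 2.62 and 2.33 CPM with arsenite and 44.5, 43.6 and 47.6 CPM untreated, 17.7-fold lower (-4.14 ± 0.13). In Dmr-PERK cells it held 1.59, 1.31 and 2.23 CPM against 19.8, 18.6 and 20.1 CPM, 11.6-fold lower. Its mean effects were -2.77 ± 0.06 in Parental (-2.84 without the Parental library that stood apart) and -2.60 ± 0.08 in Dmr-PERK cells. ID1 at 16 h held 9.23, 9.08 and 11.5 CPM with arsenite and 111, 120 and 121 CPM untreated in Dmr-PERK cells, 12-fold lower, and 11.9, 11.3 and 12.1 CPM against 140, 130 and 124 CPM in Parental cells, 11.2-fold lower. At 24 h ID1 had come part of the way back in Dmr-PERK cells (28.3, 25.5 and 30.5 CPM). In Parental cells at 24 h it held 39.0, 41.2 and 67.8 CPM. The highest is again the Parental library that stood apart, and the value at 24 h was -1.40 with it and -1.70 without it.

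ID2 reversed within the time course. In Dmr-PERK cells it held 2.16, 2.01 and 1.98 CPM at 8 h of arsenite, below the untreated 9.35, 8.39 and 8.87 CPM (-2.08 ± 0.12). At 16 h it held 21.4, 19.0 and 21.7 CPM, above the untreated 7.10, 7.24 and 6.84 CPM (1.55 ± 0.08). At 24 h the wells held 260, 240 and 288 CPM against 6.76, 8.40 and 6.11 CPM, a 37.2-fold level (5.22 ± 0.06, adjusted p = 2.82e-86). In Parental cells ID2 was lower at 8 h (-1.48 ± 0.10), higher at 16 h (0.67 ± 0.07) and 13.5-fold higher at 24 h (3.75 ± 0.06), when its wells held 152, 159 and 150 CPM against 10.6, 13.0 and 11 CPM untreated. No groups named here overlapped. At 24 h ID2 stood at 356 ± 22.7 TPM in Dmr-PERK and 188 ± 22.4 TPM in Parental cells, and its antisense partner ID2-AS1 at 1.49 and 1.14 TPM. The means of 4 to 24 h, 0.71 ± 0.06 and 0.45 ± 0.04, average a fall and a rise. Without the Parental library that stood apart the Parental values were 3.76 at 24 h and 0.45 as a mean.

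ID4 rose late without an earlier fall of that size. In Dmr-PERK cells its wells at 24 h held 56.3, 54.3 and 63.4 CPM against 6.08, 4.93 and 5.00 CPM, a 10.9-fold level (3.44 ± 0.09), and in Parental cells 47.0, 50.5 and 39.1 CPM against 6.74, 6.61 and 5.40 CPM, a 7.21-fold level (2.85 ± 0.09). Both pairs of groups were separate. In Dmr-PERK cells untreated ID4 stood at 15.2 TPM at 0 h and 3.64 TPM at 24 h, so part of this gap is its untreated fall. Without the Parental library that stood apart the Parental value was 2.93. At 4 h the values were -0.13 ± 0.09 in Dmr-PERK cells, not called (adjusted p = 0.238, and -0.12 without the Dmr-PERK library that stood apart), and 0.25 ± 0.08 in Parental cells. The antisense partner AL022068.1 stood at 8.77 TPM in Dmr-PERK cells at 24 h of arsenite, where ID4 stood at 29.8 TPM, and at 3.77 TPM untreated, where ID4 stood at 3.64 TPM. Whether its reads were kept apart from those of ID4 was not tested.

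ID3 and SMAD7 gave values that differed between the lines. ID3 fell in Dmr-PERK cells at 4 h (-0.46 ± 0.06, and -0.56 without the Dmr-PERK library that stood apart) and 8 h (-0.75 ± 0.07), while in Parental cells it was higher at 4 h (0.29 ± 0.06) and 8 h (0.52 ± 0.07). At 8 h its wells held 60.4, 58.3 and 53.8 CPM against 95.1, 97.5 and 102 CPM in Dmr-PERK cells, and 109, 107 and 104 CPM against 74.2, 75.3 and 73.3 CPM in Parental cells, with no overlap in either. At 16 h it was lower in both lines (-2.84 ± 0.08 and -1.42 ± 0.08). SMAD7 fell by 0.55 ± 0.03 in Dmr-PERK and 0.27 ± 0.03 in Parental cells as means (0.28 in Parental cells without the Parental library that stood apart); in Parental cells its values at 4 h (0.10 ± 0.06) and 8 h (0.11 ± 0.06) were not called.

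At 2 h of arsenite the early rise was partial. In Dmr-PERK cells 4 of 7 members were higher than at 0 h (10.5% of all genes): ID3 (0.89 ± 0.06), SMAD6 (0.64 ± 0.09), ID4 (0.58 ± 0.08) and SMAD7 (0.54 ± 0.06). ID1 (0.16 ± 0.06) and ID2 (0.19 ± 0.08) were not called. In Parental cells 6 of 7 were higher (10.5% of all genes), led by ID3 (1.38 ± 0.06), ID4 (0.95 ± 0.08) and SMAD7 (0.90 ± 0.06). NOG was already lower in both, with 50.3, 51.1 and 44.4 CPM against 81.6, 81.0 and 84.4 CPM in Dmr-PERK cells (-0.76 ± 0.07) and 61.1, 62.1 and 56.2 CPM against 66.8, 69.0 and 72.9 CPM in Parental cells (-0.22 ± 0.07). Against untreated wells at 4 h NOG was again lower in Dmr-PERK cells (-0.41) but higher in Parental cells (0.68), so its direction in Parental cells at 2 h depends on the control; the other Parental calls held, and ID2 was called in Dmr-PERK cells too (0.30).

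Counted as means of 4 to 24 h of arsenite, 2 of 7 members were higher in Dmr-PERK cells (44.4% of all genes) and 5 lower (39.2% of all genes), and 2 were higher in Parental cells (42.7% of all genes) and 5 lower (39.4% of all genes). The median of the 7 was -1.57 in Dmr-PERK and -0.33 in Parental cells, where all genes had medians of 0.12 and 0.09; with so many genes called, these counts alone do not set the members apart. All 7 changed with time in Dmr-PERK cells (71.2% of all genes), 6 without SMAD7 under upper-quartile scaling and under DESeq2, and all 7 in Parental cells (73.1% of all genes). The arsenite effect was called lower in Dmr-PERK than in Parental cells for 4 of 7 members (18.7% of all genes): NOG (-1.92 ± 0.11), ID3 (-1.25 ± 0.05), ID1 (-0.81 ± 0.06) and SMAD7 (-0.28 ± 0.04). It was higher for ID2 (0.25 ± 0.07), 1 of 7 where 23.5% of all genes were, and not called for ID4 (-0.02 ± 0.07) and SMAD6 (0.17 ± 0.12). Without the Parental library that stood apart these 5 calls held, with NOG at -1.79, ID3 at -1.19 and ID1 at -0.74, and without the Dmr-PERK library they held with NOG at -1.93, ID3 at -1.27 and ID1 at -0.82. With the replicate 1 wells left out ID2 was not called (0.20, adjusted p = 0.116). Upper-quartile scaling moved the median of all genes under arsenite to 0.35 and 0.34, gave 14445 higher and 8287 lower genes in Dmr-PERK and 14187 and 8239 in Parental cells, against 11979 and 10580 and 11522 and 10639, and left SMAD7 in Parental cells uncalled (-0.02, adjusted p = 0.542).

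**Figure D3:**
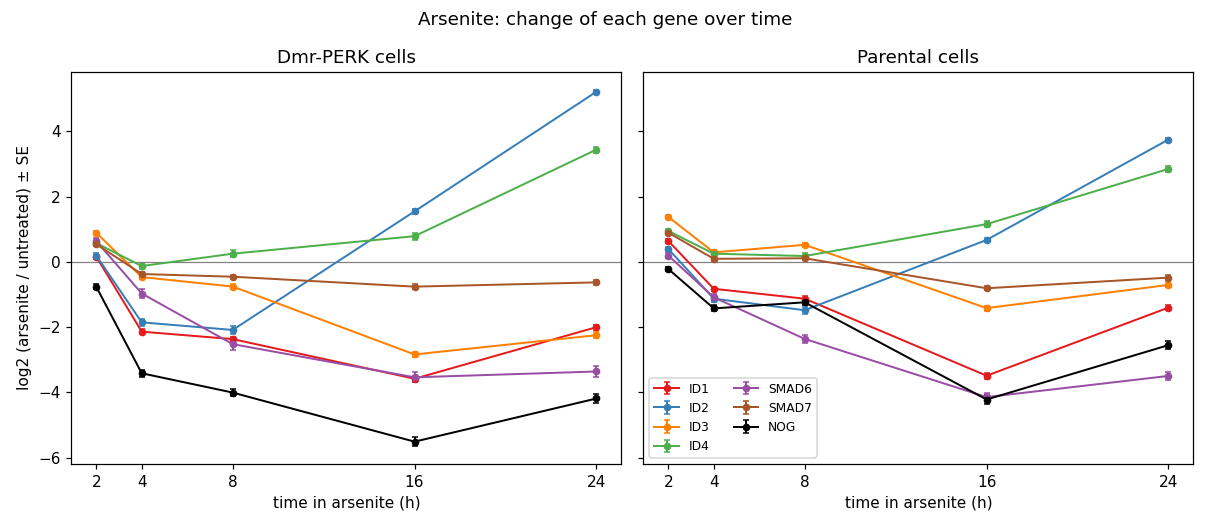
Log2 ratio of arsenite to untreated wells (± SE) against hours in arsenite, with 1 line per gene, in Dmr-PERK (left) and Parental cells (right). ID2 runs from -2.08 at 8 h to 5.22 at 24 h in Dmr-PERK cells, and NOG reaches -5.51 at 16 h there.

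**Figure D4:**
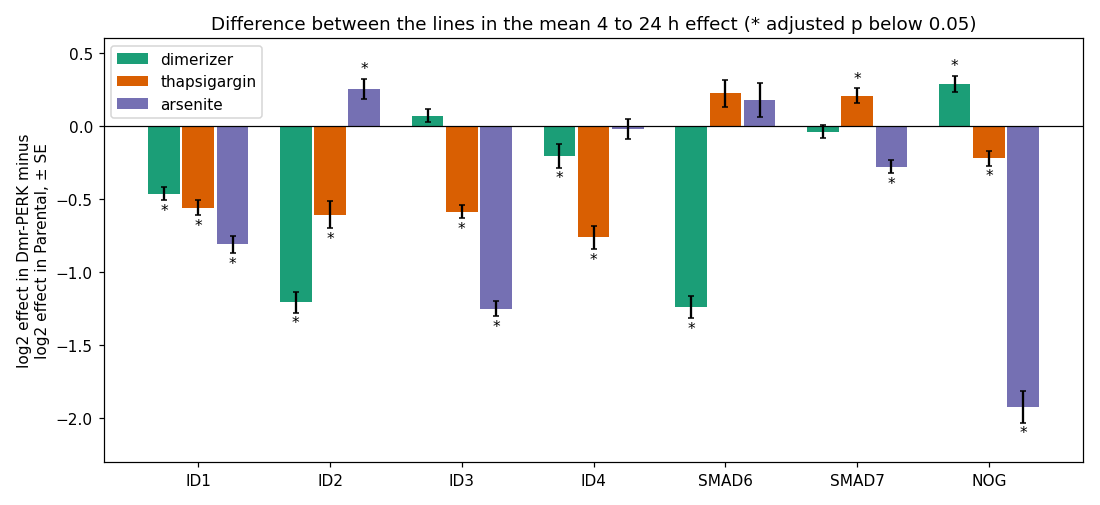
Log2 effect of each treatment in Dmr-PERK cells minus that in Parental cells, as means of 4 to 24 h (bars, ± SE), with a star where the adjusted p was below 0.05. ID2 and SMAD6 stand lowest for dimerizer (-1.21 and -1.24), and NOG and ID3 for arsenite (-1.92 and -1.25).

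Treatments were also set against each other within a line, as means of 2 to 24 h. Beside thapsigargin in Dmr-PERK cells, dimerizer wells held more ID2 (0.71 ± 0.07), SMAD7 (0.68 ± 0.03), ID1 (0.67 ± 0.03), SMAD6 (0.37 ± 0.07) and ID3 (0.26 ± 0.03), 5 of 7 members against 26.2% of all genes. They held less NOG (-0.27 ± 0.03), 1 of 7 against 20.9% of all genes, and ID4 was not called (-0.01 ± 0.06, adjusted p = 0.964). These means cover hours of both directions. For ID1 the gap was -0.39 ± 0.06 at 2 h and 1.80 ± 0.08 at 16 h. At 24 h ID1 averaged 81.6 CPM with dimerizer and 37.5 CPM with thapsigargin. At 2 h, 4 of 7 members were called lower with dimerizer (12.5% of all genes) and 0 higher (5.84%). At 16 h, 6 were called higher (19.7%) and 0 lower (13.2%). Beside arsenite, dimerizer wells held more NOG (3.86 ± 0.05), ID1 (1.75 ± 0.03), ID3 (1.25 ± 0.03), SMAD6 (1.12 ± 0.08) and SMAD7 (0.40 ± 0.03), 5 of 7 against 37.8% of all genes, and less ID2 (-1.53 ± 0.06) and ID4 (-1.09 ± 0.04), 2 of 7 against 42.6%. Upper-quartile scaling gave 7305 genes higher and 14815 lower there, against 10197 and 11500, with no member's call changed. The ID2 mean beside arsenite averages both directions. Its group means were 10.1 TPM with dimerizer and 4.88 TPM with arsenite at 4 h, and 3.40 and 356 TPM at 24 h.

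Thapsigargin against arsenite gave the same signs in both lines. In Dmr-PERK cells NOG (4.14 ± 0.05), ID1 (1.08 ± 0.04), ID3 (0.99 ± 0.03) and SMAD6 (0.75 ± 0.08) were higher with thapsigargin, 4 of 7 against 37.3% of all genes, and ID2 (-2.24 ± 0.06), ID4 (-1.08 ± 0.05) and SMAD7 (-0.28 ± 0.03) lower, 3 of 7 against 43.5%. In Parental cells the same 4 were higher (36.9% of all genes), NOG by 2.72 ± 0.04 (2.83 without the Parental library that stood apart), and the same 3 lower (42.3% of all genes), ID2 by 1.58 ± 0.05. With upper-quartile scaling the genes higher and lower were 7430 and 14817 in Dmr-PERK cells, against 10079 and 11733, and 7330 and 14583 in Parental cells, against 9949 and 11425. As means, NOG and SMAD7 thus separated the agents in opposite ways: NOG was kept with thapsigargin and lost with arsenite, and SMAD7 was lower with thapsigargin. These means do not hold at each hour. At 4 h in Dmr-PERK cells all 7 of 7 members were called higher with thapsigargin (24.4% of all genes), SMAD7 and ID2 among them. The SMAD7 mean in Dmr-PERK cells was not called with limma on log2(TPM + 1). The treatments of a line share their untreated wells, so their effects are given side by side and no overlap between them is counted.

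The rest of the pathway was read from 9 lists with 87 genes, of which 77 were tested, as means of 4 to 24 h in Dmr-PERK cells unless said otherwise. Of all genes there, 27.5% were called higher and 27.7% lower with dimerizer, 30.9% and 32.2% with thapsigargin, and 44.4% and 39.2% with arsenite. The medians of all genes were -0.03, 0 and 0.12. Counts near those shares do not set a list apart. Of 9 BMP-type ligands 2 rose and 5 fell with dimerizer (median -0.21), and 3 rose and 5 fell with thapsigargin (median -0.20). BMP4, a ligand that switches on the ID genes, fell by 1.86 ± 0.05 with dimerizer, by 2.83 ± 0.05 with thapsigargin and, in Parental cells, by 3.61 ± 0.04 with thapsigargin. BMP5 fell by 1.21 ± 0.03 and 1.93 ± 0.04 with dimerizer and thapsigargin. With arsenite 5 rose and 1 fell. BMP7 rose by 2.32 ± 0.04, and the 1 that fell was BMP5, by 1.88 ± 0.03, so BMP4 was not called lower there. The part of these ligands in the changes of the members was not tested.

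Of 10 TGF-beta and activin-type ligands 1 rose and 7 fell with dimerizer, 1 rose and 8 fell with thapsigargin, and 5 rose and 5 fell with arsenite. INHBE, an activin subunit gene, rose by 3.36 ± 0.06, 3.81 ± 0.05 and 3.13 ± 0.06, while GDF11 fell by 1.16 ± 0.03 with dimerizer and 1.58 ± 0.03 with thapsigargin. TGFB2 fell by 2.95 ± 0.05 with arsenite. Of 15 receptors and co-receptors 4 rose and 7 fell with dimerizer, 5 and 9 with thapsigargin, and 2 and 12 with arsenite, with medians of -0.05, -0.31 and -1.08. The co-receptor TGFBR3 fell by 1.34 ± 0.06 with dimerizer, the endothelial-type co-receptor ENG by 1.33 ± 0.03 with thapsigargin, and the BMP co-receptor RGMB by 2.12 ± 0.03 with arsenite, although RGMB rose by 0.45 ± 0.02 with dimerizer.

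Of the 6 receptor-regulated and common SMADs, which carry the signal, 5 rose and 1 fell with dimerizer, 3 rose and 1 fell with thapsigargin, and 2 rose and 3 fell with arsenite. SMAD1 rose by 0.49 ± 0.03 and SMAD2 by 0.21 ± 0.02 with dimerizer. SMAD3 fell by 0.82 ± 0.03 with thapsigargin and 2.41 ± 0.03 with arsenite, and SMAD5 fell by 1.26 ± 0.03 with arsenite. Of 10 secreted antagonists other than noggin 9 fell with dimerizer and 8 with thapsigargin, with medians of -0.58 and -0.75, whereas NOG rose with both. FST (follistatin) fell by 0.65 ± 0.03 and TWSG1 by 0.48 ± 0.02 with dimerizer, and CHRDL1 fell by 2.92 ± 0.10 with thapsigargin. With arsenite 4 rose and 5 fell.

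Of 8 other intracellular inhibitors 5 rose and 3 fell with dimerizer, 2 rose and 4 fell with thapsigargin, and 3 rose and 5 fell with arsenite. TGIF2, a co-repressor of SMADs, rose by 0.52 ± 0.03 with dimerizer and fell by 2.11 ± 0.05 with arsenite, and the ubiquitin ligase SMURF2 fell by 0.66 ± 0.02 with thapsigargin and 1.15 ± 0.02 with arsenite. Of 6 other BMP target genes 4 rose and 2 fell with dimerizer, 2 and 1 with thapsigargin, and 2 and 3 with arsenite. ATOH8 fell by 0.55 ± 0.08 with dimerizer and 1.32 ± 0.09 with thapsigargin, and HEY1 rose by 0.59 ± 0.06, 0.37 ± 0.06 and 3.52 ± 0.04 with dimerizer, thapsigargin and arsenite. MSX1, a homeobox target of BMPs, rose by 2.71 ± 0.03 with arsenite.

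Of 8 TGF-beta target genes 2 rose and 5 fell with dimerizer, 8 fell with thapsigargin, and 2 rose and 6 fell with arsenite. TGFBI fell by 0.86 ± 0.04 with dimerizer and 2.92 ± 0.05 with thapsigargin, and SNAI1 rose by 2.72 ± 0.04 with arsenite. Of 5 bHLH genes tested, the class of factors that ID proteins bind, 2 rose and 2 fell with dimerizer, and 1 rose and 4 fell with thapsigargin and with arsenite. TCF4 fell by 1.18 ± 0.04, 1.52 ± 0.04 and 1.93 ± 0.04, and TCF12 rose by 0.59 ± 0.03 with dimerizer and 0.49 ± 0.03 with thapsigargin. These lists were chosen with earlier results of these data known, and their counts are read beside the shares of all genes given above.

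Across the 40 group means of log2 CPM, each line centred on its own mean, the members fell into no single pattern. ID1 went with SMAD6 (Pearson r = 0.90), ID3 (0.88), NOG (0.78) and SMAD7 (0.75). ID3 went with SMAD7 (0.74), SMAD6 (0.74) and NOG (0.70), and SMAD6 with SMAD7 (0.70) and NOG (0.63). SMAD7 and NOG were less alike (0.32). ID2 went with ID4 (0.70) and against NOG (-0.34). The remaining pairs, all with ID2 or ID4, lay between -0.12 (ID4 and NOG) and 0.43 (ID4 and SMAD7). The points share their lines and hours, so these are descriptions with no test. Among 12331 genes with a mean of at least 5 CPM, the closest patterns were KB-1732A1.1 (0.91), DACT1 (0.90) and KAZALD1 (0.90) for ID1, HEXIM1 (0.92), OAT (0.91) and IER5L (0.89) for ID2, and KLF6 (0.91), MAPK1IP1L (0.90) and AMOTL2 (0.89) for ID3. They were DUSP1 (0.91), DUSP2 (0.90) and SRSF5 (0.89) for ID4, RHOBTB1 (0.97), SLC6A16 (0.96) and ZNF608 (0.95) for SMAD6, ACOT11 (0.91), EFNB3 (0.91) and CYP27C1 (0.91) for SMAD7, and NKX3-2 (0.96), CDK9 (0.96) and ZNF549 (0.95) for NOG.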

How the data were processed

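Total RNA from 120 wells, 3 in each of 40 groups of line, treatment and time, was sequenced from directional libraries per the labels' protocols. The values used here are the authors' estimated counts and their TPM, both deposited per gene. Salmon 0.9.1, FastQC 0.11.5 and the build GRCh38 are listed in the submitters' processing notes. In the deposited table the authors' TPM columns sum to between 1001150 and 1001825, because a count of 0 is written as 0.063122. Of the non-zero estimated counts 49.5% were whole (within 1e-05), and all were rounded before testing.

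From the counts, edgeR 4.0.16 (R 4.3.3) kept 26998 of 57665 genes (filterByExpr, minimum count 10), scaled libraries by TMM (factors 0.839 to 1.17) and fitted 1 quasi-likelihood model over the 40 groups (80 residual degrees of freedom). All groups share 1 estimate of the spread. P-values were adjusted by Benjamini and Hochberg within each comparison and called below 0.05. Treatment effects are means over 4, 8, 16 and 24 h, single hours, or differences between lines, and 1 treatment is set against another as means over 2 to 24 h; change over time was an F test. TPM was used for levels between genes and for marker sums.

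Named genes were the 7 members, the 2 genes of each pathway list with the smallest adjusted p, the stress check genes and the 3 genes most like each member. BMP4 and BMP5, INHBE, TGFBR3, RGMB, SMAD3, TCF4 and others are repeated across treatments where they were named in 1 of them. The members and lists were chosen with earlier results of these data known. No 2 replicate libraries were identical. Alternatives were other scalings, no filter, a replicate block, left-out replicates, fewer groups, limma 3.58.1 on log2 TPM and DESeq2 1.42.0.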

Additional observations from a re-analysis of the deposited data

Results flagged for a closer look

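The following results differed between lines or changed with time by a test of the difference itself. The effect of dimerizer from 4 to 24 h, in Dmr-PERK minus Parental cells on the log2 scale, was -0.46 for ID1, -1.21 for ID2, -0.21 for ID4, -1.24 for SMAD6 and 0.29 for NOG. The effect of thapsigargin differed by -0.56 for ID1, -0.61 for ID2, -0.59 for ID3, -0.76 for ID4, 0.21 for SMAD7 and -0.22 for NOG. The effect of arsenite differed by -0.81 for ID1, 0.25 for ID2, -1.25 for ID3, -0.28 for SMAD7 and -1.92 for NOG. At 2 h the effect of dimerizer differed by 0.65 for ID1, 0.57 for ID3, 0.45 for ID4, 0.58 for SMAD6 and 0.47 for SMAD7. In Dmr-PERK cells the effect of dimerizer changed between 4 and 24 h for 7 members (42.1% of all genes). That of thapsigargin did for 7 (52.2%) and that of arsenite for 7 (71.2%). In Parental cells the numbers were 1 (3.76%), 7 (49.9%) and 7 (73.1%). With a replicate left out or with limma the dimerizer count of members in Dmr-PERK cells was 5 to 7. The arsenite count in Dmr-PERK cells was 6 under upper-quartile scaling and DESeq2. The 1 in Parental cells was 0 without replicate 1 or 2, and 2 with only the lines and treatments compared. Each value rests on 3 wells per group.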

How the results depend on the processing

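Over the 98 member results that average several hours, under 13 alternatives each, 1220 of 1274 values kept their direction and their side of the threshold, 13 lost a call, 13 gained one and none changed sign while called. At single hours 2610 of 2772 values held. The 1 reversal was NOG at 2 h of arsenite in Parental cells, which went from -0.22 to 0.68 when untreated wells at 4 h served as the control, a choice made after the data were seen, as was leaving out either of the 2 arsenite libraries that stood apart. Without Dmr-PERK arsenite 4 h replicate 3 all 98 and 210 member results kept their direction and call. With limma on log2(TPM + 1), the line difference was no longer called for ID2 with thapsigargin (-0.21) nor for SMAD7 with arsenite (-0.07), nor was SMAD7 for thapsigargin against arsenite in Dmr-PERK cells (-0.07); the causes were not tested.

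The number of genes called for dimerizer in Parental cells moved most: 157 became 94 with no filter, 330 without Parental arsenite 24 h replicate 3, 422 with only the lines and treatments compared in the fit, 28 and 14 with limma on log2(TPM + 1) and log2(TPM + 0.1), and 291 with DESeq2 (204 higher, 87 lower), and lay between 4 and 126 with 1 replicate left out. The number whose dimerizer effect changed with time there went from 1015 to 1551, 1653, 339 and 289 under the same library, group and 2 limma settings, and to between 257 and 988 with a replicate left out. The line difference in the thapsigargin effect, called for 6939 genes, was called for 4581 to 6063 with a replicate left out. On log2(TPM + 1) the higher and lower genes were 3486 and 2114 for this difference (3054 and 3885 by edgeR), 8994 and 3474 for that in the arsenite effect (6355 and 5048), and 4765 and 6069 for dimerizer against thapsigargin (7060 and 5647). On log2(TPM + 0.1) they were 9028 and 12776 for arsenite in Parental cells (11522 and 10639) and 12175 and 9341 for thapsigargin against arsenite there (9949 and 11425). Leaving out a replicate also leaves fewer samples in the fit; the causes of the other changes were not tested.

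Replicate numbers did not pair the wells: deviations of wells with the same number in different groups had a median correlation of 0.00066. With a replicate block, 14914 genes were called for dimerizer in Dmr-PERK cells against 14901 without it, all 22 counts stayed within 1.5 times, and no member's call changed. The lowest levels, 15 counts for ID2 with thapsigargin and 25 for NOG with arsenite at 16 h, limit the precision of those fold changes.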
